A study of Mus musculus with 4 samples.

Results

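The GATA factors and their partners, 10 transcription factors that act in early red cell and platelet development, were followed through single LSK cells of mouse bone marrow. They were Gata1, Gata2, Klf1, Zfpm1, Tal1, Nfe2, Gfi1b, Lmo2, Ldb1 and Fli1. They were found by their symbols among the 27998 genes of the count tables, so the set holds 10 of 27998 genes, and all 10 were counted in each library. The rule that picks them uses no measured value, but the 10 factors were chosen with earlier results of these data known.

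GATA1 and GATA2 are zinc finger proteins that bind the same short DNA word. GATA2 is known for its role in stem cells, early progenitors and mast cells, and GATA1 for driving red cell and megakaryocyte maturation. During red cell maturation GATA1 is known to take the place of GATA2 on chromatin, which is called the GATA switch. ZFPM1, also called FOG1, is the cofactor of GATA1. TAL1, LMO2 and LDB1 form the core of a complex that GATA factors join, in which TAL1 binds DNA and LMO2 and LDB1 are bridges. KLF1 binds CACCC words and drives globin and red cell membrane genes. FLI1 is an ETS factor of megakaryocytes, and KLF1 and FLI1 are known to oppose each other where red cell and megakaryocyte fates part. NFE2 works in globin and platelet genes, and GFI1B is a repressor that red cell and megakaryocyte development needs.

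LSK cells lack lineage markers and carry Sca1 and cKit, and hold the stem cells and multipotent progenitors of the marrow. Their RNA was counted by 3′ ends in droplets in 4 libraries, where a unique molecular identifier (UMI) stands for 1 captured molecule. Nup358 fl/fl mice, named wild-type in the labels, gave the 2 control libraries. The 2 knockout libraries were from Nup358 fl/fl R26-CreERT2 mice, in which Cre is made in all tissues and removes exon 2 of the nuclear pore gene Nup358 after tamoxifen. Mice of both genotypes were 9 to 12 weeks old and received tamoxifen on 3 consecutive days, so the controls lack Cre but not the drug. Each library pooled the marrow of 3 mice. The p-values between genotypes measure only the spread between such pools. Those between cell types measure the spread of the type differences over the pools. Ranbp2, the gene that encodes Nup358, was counted at 127 and 101 UMIs per 1000000 UMIs of the summed cells (CPM) in the controls and at 124 and 126 CPM in the knockouts. These 3′ counts lie outside the deleted exon and do not check the deletion.

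Of the 25242 deposited barcodes, 10936 (43.3%) carried a sequence that was found in another library with 3 times their UMIs or more. Such copies were 14.8% and 81.8% of the barcodes in control 1 and 2, and 65.3% and 18.8% in knockout 1 and 2, and 1138 barcode sequences stood in all 4 libraries. They were left out, and the tests and the co-detection ratio were repeated with them. This left 14041 cells with median UMIs of 6251 and 13175.5 in the controls and 17707 and 14398.5 in the knockouts. Control 2 stood apart by its red cell RNA. Globin genes and Alas2 made up 1351 CPM there, against 127 to 224 CPM in the other 3 libraries.

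Cells with at least 2000 UMIs, 13480 in all, were scored by marker genes that include none of the 10 factors, and a part of them was sorted into progenitor types. A lineage gate required at least 3 marker genes and a marker level at least 3 times the mean. It held 274 erythroid-like cells (148 and 27 in the controls, 29 and 70 in the knockouts) and 463 megakaryocyte-like cells (243, 33, 41 and 146 in the same order). It also held 83 basophil/mast-like cells, of which control 2 had 5. Unprimed cells, 3196 in all, were below the mean of every lineage list. There were 275 lymphoid-like and 571 stem-like cells. Cells that met the rule of no type were left without one. They enter only the results over all cells and along the marker levels. The gates cut a range and not separate types, since 19 erythroid-like cells lay just above the limit and 50 cells just below it, with 72 and 140 for the megakaryocyte gate. The erythroid-like cells had a median of 6 erythroid marker genes, and the median of megakaryocyte marker genes in them was 1. Megakaryocyte-like cells had a median of 1.66 erythroid marker UMIs per 10000, above the mean of 1.29 that unprimed cells had to stay below. The part of this rule in the differences from unprimed cells was not tested. In total 34 cells passed both gates and were given to the higher score. The other gates overlapped as well. Of the 83 basophil/mast-like cells 17 also passed another gate, as did 260 of 655 monocyte/dendritic-like and 460 of 1421 neutrophil-like cells.

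The promoters of Gata1, Klf1 and Gfi1b are shown because the results on red cell priming and on genotype turn on these factors, and because their windows hold words that this family binds. The windows run from 250 bases before to 50 after the RefSeq start on GRCm38.p6. Capitals mark a match to AGATAA or TGATAA, the GATA word, or to CCNCACCC, a KLF word, on either strand. The Gata1 promoter lies at chrX:7967861-7968160 on the minus strand, the Klf1 promoter at chr8:84901732-84902031 on the plus strand and the Gfi1b promoter at chr2:28621933-28622232 on the minus strand. The Gata1 window lies inside the annotated gene (chrX:7959260-7978071, minus strand), so the RefSeq start used is not the outermost start of Gata1.
Gata1: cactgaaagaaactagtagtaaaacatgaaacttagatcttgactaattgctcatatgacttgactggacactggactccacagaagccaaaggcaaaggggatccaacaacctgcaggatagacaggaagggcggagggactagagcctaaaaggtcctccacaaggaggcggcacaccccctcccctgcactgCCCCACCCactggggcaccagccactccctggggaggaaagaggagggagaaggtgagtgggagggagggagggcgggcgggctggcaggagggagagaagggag
Klf1: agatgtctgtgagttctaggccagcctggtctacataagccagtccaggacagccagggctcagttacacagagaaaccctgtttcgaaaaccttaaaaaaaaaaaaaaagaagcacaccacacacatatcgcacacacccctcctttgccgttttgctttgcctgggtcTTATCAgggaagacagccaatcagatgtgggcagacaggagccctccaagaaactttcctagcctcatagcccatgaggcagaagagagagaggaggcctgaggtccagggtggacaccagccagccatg
Gfi1b: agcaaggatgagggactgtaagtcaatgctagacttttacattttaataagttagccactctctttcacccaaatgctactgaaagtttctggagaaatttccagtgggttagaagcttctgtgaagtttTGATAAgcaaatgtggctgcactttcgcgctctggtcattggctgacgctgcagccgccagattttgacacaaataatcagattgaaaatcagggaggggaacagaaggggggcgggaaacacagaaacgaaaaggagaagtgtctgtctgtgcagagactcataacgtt
The KLF word stood 55 to 48 bases before this inner Gata1 start. The GATA word stood on the reverse strand 80 to 75 bases before the Klf1 start, and 120 to 115 bases before the Gfi1b start. Of the 11 promoters found for 7 of the factors, 4 held a GATA word, against 18.6% of 32851 mouse promoters of this length. The KLF word was in 2 of 11, against 16.6% of all, and the ETS word CCGGAAGT was in 0 of 11, against 3.89%. A match is a description of the letters and not a binding site. Promoters of Fli1, Nfe2 and Lmo2 were not analysed here.

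In the annotation on GRCm38, Gata1 lies at chrX:7959260-7978071, Gata2 at chr6:88193891-88207032 and Klf1 at chr8:84901928-84905291. Zfpm1 shares chromosome 8 with Klf1, at chr8:122282141-122337251. Fli1 lies at chr9:32422204-32542861 and Gfi1b at chr2:28609450-28621982. Lmo2 is on the same chromosome at chr2:103957986-103981878. Tal1 lies at chr4:115056426-115071755, Nfe2 at chr15:103248212-103258403 and Ldb1 at chr19:46031570-46045214.

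The 2 GATA genes had different peaks. Gata1 was counted in erythroid-like cells at 109 and 105 CPM in the controls and at 83.3 and 89.1 CPM in the knockouts. In megakaryocyte-like cells it stood at 65.4, 91.4, 56.1 and 59.1 CPM in the same library order, and in basophil/mast-like cells at 26.9, 53.3, 31.2 and 38.6 CPM. Unprimed cells held 1.8 to 4.6 CPM, and each of the 3 primed types was above them in all 4 libraries without overlap. The erythroid-like and megakaryocyte-like ranges overlapped, although the erythroid-like level was higher within each library. Of the other types, monocyte/dendritic-like and lymphoid-like cells held 1 Gata1 UMI each, among 7000744 and 4032563 UMIs.

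Gata2 peaked elsewhere, in basophil/mast-like cells, at 323, 384, 319.6 and 337 CPM. It stood at 179.8, 194, 174 and 144 CPM in megakaryocyte-like cells and at 99.8, 151, 239 and 158 CPM in erythroid-like cells, and these 2 types had overlapping ranges with 2 libraries higher on each side. Stem-like cells (72.0 to 94.7 CPM) and unprimed cells (59.2 to 77.5 CPM) overlapped too. The neutrophil-like level, 12.5 to 26.9 CPM, was below both without overlap. Within a library the ratio of Gata1 to Gata2 UMIs was 1.09, 0.70, 0.35 and 0.56 in erythroid-like cells and 0.36, 0.47, 0.32 and 0.41 in megakaryocyte-like cells. It was 0.08 to 0.14 in basophil/mast-like cells, so that the ratio separated basophil/mast-like cells from both other types in each library.

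Klf1 and Fli1 parted the erythroid-like from the megakaryocyte-like cells. Klf1 stood at 168 and 126 CPM in erythroid-like cells of the controls and at 72.2 and 90.3 CPM in those of the knockouts. Its levels were 15.9, 29.7, 14.0 and 10.98 CPM in megakaryocyte-like cells, 13.4 to 21.3 CPM in basophil/mast-like cells and at most 2.0 CPM in unprimed cells. The erythroid-like cells were above each other type without overlap, and lymphoid-like cells held 0 Klf1 UMIs, which at 3 UMIs as the limit allows up to 0.744 CPM. Fli1 took the opposite order, at 27.2, 52.6, 47.2 and 46.6 CPM in erythroid-like and 149, 215, 220.2 and 200.2 CPM in megakaryocyte-like cells. Megakaryocyte-like cells were above each other type for Fli1, and stem-like cells, at 84.5 to 90.5 CPM, came next. Klf1 UMIs per Fli1 UMI came to 6.19, 2.39, 1.53 and 1.94 in erythroid-like cells and to 0.05 to 0.14 in megakaryocyte-like cells.

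Zfpm1 was high in both lineages, at 249, 192, 150.0 and 170.4 CPM in erythroid-like and 335, 299, 215 and 270.3 CPM in megakaryocyte-like cells. The megakaryocyte-like level was higher within each library, but the ranges overlapped. Unprimed cells held 42.2 to 74.8 CPM. Gfi1b stood at 84.0 and 52.6 CPM in erythroid-like cells of the controls and at 30.6 and 22.7 CPM in those of the knockouts, and at 53.3, 84.5, 47.5 and 57.4 CPM in megakaryocyte-like cells. Basophil/mast-like cells read 44.8, 74.6, 4.8 and 22.9 CPM in library order, from 38 UMIs in all. The genotype difference was not tested in that type. Unprimed cells held 8.7 to 17.3 CPM of Gfi1b, and neutrophil-like cells 1.9 CPM in both controls and 0 in both knockouts. In these cells 17 Gata2 UMIs came to 26.9 CPM in knockout 1, and 1 Klf1 UMI to 2.1 CPM in knockout 2. A 0 there thus cannot be told from 1.9 CPM.

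The core of the complex was spread more widely. Tal1 had overlapping levels in erythroid-like (78.9, 84.6, 59.7 and 73.5 CPM) and megakaryocyte-like cells (74.8, 79.9, 61.5 and 74.3 CPM), and the lowest erythroid-like value lay within the stem-like range of 42.0 to 59.9 CPM. Unprimed cells were at 32.1 to 38.6 CPM. Lmo2 was highest in stem-like cells, at 630.0, 764, 734 and 599 CPM, above megakaryocyte-like cells (439 to 571 CPM) without overlap. Erythroid-like cells held 287, 379, 328 and 364 CPM of Lmo2. Ldb1 stood at 37.1 to 57.2 CPM in erythroid-like cells and at 21.4 to 36.5 CPM in megakaryocyte-like cells. Nfe2 was spread over several types, although its megakaryocyte-like level was above the erythroid-like and unprimed levels within each library. Its megakaryocyte-like (70.8 to 131 CPM), stem-like (63.2 to 119 CPM), basophil/mast-like (74.6 to 116 CPM), erythroid-like (52.6 to 100.02 CPM) and unprimed ranges (55.3 to 96.3 CPM) all overlapped, and lymphoid-like cells were at 13.2 to 20.5 CPM.

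**Figure D1:**
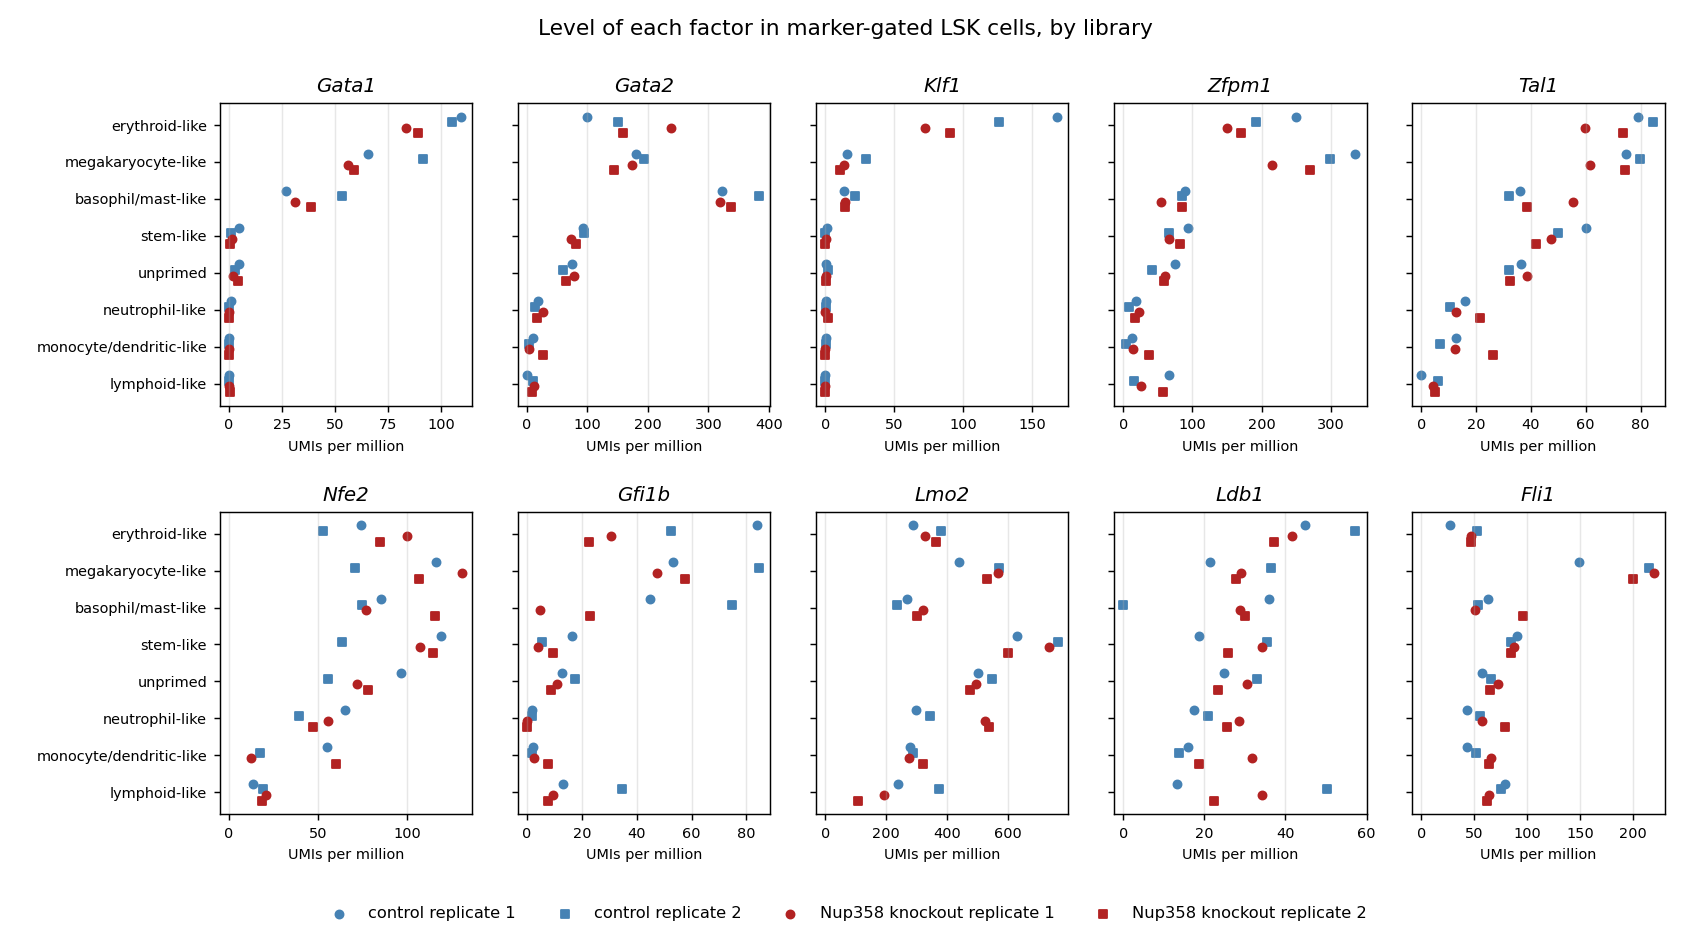
CPM of each factor (x axis, linear, own scale per panel) in 8 marker-gated types (y axis), with 1 point for each of the 4 libraries, controls in blue and knockouts in red. Klf1 is high in erythroid-like cells, Fli1 in megakaryocyte-like cells and Gata2 in basophil/mast-like cells, while Lmo2 is highest in stem-like cells at 599 to 764 CPM.

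The types were compared within libraries by edgeR's quasi-likelihood test on summed UMIs, with the library as a block and Benjamini-Hochberg adjustment over 9451 genes. Erythroid-like cells differed from unprimed cells in 9 of the 10 factors, where 23.6% of all genes tested were called. Klf1 was higher by 7.01 ± 0.23 (log2 fold change ± SE, adjusted p = 4.5e-21) and Gata1 by 4.79 ± 0.19 (adjusted p = 6.5e-20). Each SE is the size of the log2 fold change divided by the square root of its F statistic, and not a fitted value. Gfi1b (1.99), Zfpm1 (1.73), Gata2 (1.26), Tal1 (1.14) and Ldb1 (0.78) were also higher, and 11.1% of all genes were called higher. Fli1 (-0.59) and Lmo2 (-0.50) were lower, where 12.4% of genes were, and Nfe2 did not pass the test. The Gata2 call depended on the depth of the gate, since with cells gated after thinning to 2000 UMIs it came to 0.42 (adjusted p = 0.27). The Fli1 call was lost without control 1 (-0.44, adjusted p = 0.10). The Lmo2 call was lost without control 1 (-0.42), without knockout 1 (-0.48) and in DESeq2 (adjusted p = 0.054).

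Megakaryocyte-like cells were above unprimed cells in 8 of 10 factors, where 12.3% of genes were called and 6.23% were called higher. Gata1 was higher by 4.12 ± 0.20 (adjusted p = 1.9e-17), Klf1 by 4.02 ± 0.30 (adjusted p = 1.0e-11) and Fli1 by 1.53 ± 0.12 (adjusted p = 8.9e-12). The other rises were Gfi1b (2.25), Zfpm1 (2.18), Gata2 (1.27), Tal1 (1.00) and Nfe2 (0.45). The Nfe2 call, at an adjusted p of 0.048, was lost in 8 of its 10 alternatives, among them without any 1 of the 4 libraries (0.31 to 0.54). Basophil/mast-like cells rose in Klf1 (4.23), Gata1 (3.38) and Gata2 (2.30) and were lower in Lmo2 (-0.76), which made 4 of 10 factors against 4.36% of genes called, 3.22% higher and 1.14% lower. Klf1 rested there on only 3, 2, 6 and 12 UMIs in library order, and control 2 is under the limit of 3 UMIs. Gata1 rested on 6, 5, 13 and 32 UMIs. The Lmo2 call was lost without control 1 (-0.72) or knockout 1 (-0.83).

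The lineages outside this family were mostly lower than unprimed cells. Neutrophil-like cells were lower in 5 of 10 factors, where 39.1% of genes were called and 20.4% called lower, namely Gfi1b (-2.95), Gata1 (-2.42), Zfpm1 (-1.90), Gata2 (-1.84) and Tal1 (-1.19). Gata1 rested there on 14 UMIs in control 1, with 0 in control 2 and in both knockouts, and Gfi1b was 0 in both knockouts. Monocyte/dendritic-like cells were lower in 7 of 10, against 20.2% of genes called and 9.61% called lower. These included Gata2 (-2.77), Gfi1b (-2.59), Zfpm1 (-2.26), Tal1 (-1.48), Nfe2 (-0.89) and Lmo2 (-0.73), beside Gata1 with its single UMI. Lymphoid-like cells were lower in 5 of 10 factors, against 16.3% of genes called and 8.43% called lower, with Gata2 at -2.94, Tal1 at -2.73, Nfe2 at -1.99 and Lmo2 at -1.31. The lymphoid-like Gata1 call rests on 1 UMI, in knockout 2, and was lost without that library. Stem-like cells differed from unprimed cells in 0 of 10 factors by edgeR, where 5.42% of genes were called. At an unadjusted p under 0.05 there were 5 factors, where 22.1% of genes were. DESeq2 called 2 there, Tal1 and Fli1.

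Between erythroid-like and megakaryocyte-like cells 4 of 10 factors differed, where 14.5% of genes were called, 7.42% higher and 7.11% lower. Klf1 (2.99 ± 0.21, adjusted p = 3.8e-12), Ldb1 (0.78 ± 0.20) and Gata1 (0.67 ± 0.17) were higher in erythroid-like cells, and Fli1 was lower (-2.12 ± 0.15, adjusted p = 2.2e-12). The Klf1 and Fli1 calls held in each of the 10 alternatives. The Gata1 call was lost in DESeq2 (0.60, adjusted p = 0.19), without control 1 (0.59) and without knockout 2 (0.65). The Ldb1 call was lost without control 1 (0.60, adjusted p = 0.19).

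Genes outside the family with the most similar pattern were looked up over the 32 sums of 8 types in 4 libraries, among 8003 genes, by Pearson's r of log2(CPM + 5). The sums share libraries and gates, so r is a description. For Gata1 they were Mfsd2b (0.98), Ces2g (0.94), Gm15915 (0.92), Icam4 (0.90) and Sept8 (0.89). Fbxo9 (0.93), Slc22a3 (0.92), Pafah2, Rab37 and Slc18a2 came nearest to Gata2, the last a carrier of monoamines such as histamine. Klf1 had Ces2g (0.97), Gm15915 (0.96), Optn, Car1 and Abcb4, of which Car1, a carbonic anhydrase of red cells, is a marker of the erythroid gate. Fli1 had lower values, with Rap1b (0.83) first, then Sdpr, Dusp3, Pf4 and Atp2a3, and the platelet factor Pf4 is a marker of the megakaryocyte gate.

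The levels were then read along the erythroid marker level of the cells, in UMIs per 10000 UMIs of a cell, with no gate and no test. Gata1 and Klf1 had their highest levels at its upper end in both controls and in knockout 2. In control 1, Gata1 went from 22.0 CPM at 1.5 to 4 marker UMIs to 51.6, 79.6 and 145 CPM in the next 3 bins, the last holding cells of 40 or more. Klf1 went from 7.4 to 24.5, 121 and 243 CPM over the same bins. Knockout 2 had 24.4, 54.5, 99.5 and 123 CPM for Gata1 and 6.1, 30.7, 89.8 and 157 CPM for Klf1.

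Gata2 was highest in a middle bin and lower in the last bin of the controls. It stood in control 1 at 117, 213, 174 and 47.9 CPM and in control 2 at 138, 267, 213 and 45.4 CPM. Knockout 2 kept 142, 181.5, 145 and 138 CPM. The last bin held 71, 12, 1 and 16 cells in library order, so that knockout 1 gives no value there and control 2 and knockout 2 have under 20 cells. In that bin Gata2 rested on 39 UMIs in control 1 (95% Poisson interval 34.0 to 65.4 CPM), 10 in control 2 (21.7 to 83.4 CPM) and 58 in knockout 2 (105 to 178 CPM). These intervals cover counting error only, and 1 knockout library allows no test.

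Fli1 was highest between 1.5 and 12 marker UMIs in all 4 libraries. In control 1 it was at 79.2, 102, 38.0 and 14.7 CPM, and in knockout 2 at 113, 109, 45.6 and 14.2 CPM. Gfi1b had its highest value in the last bin of control 1 (115 CPM, after 22.5, 49.0 and 50.6) and of control 2 (59.0 CPM), and also of knockout 2 (40.4 CPM, after 30.8, 34.9 and 13.8). Lmo2 had a mean of 508 CPM over libraries at 1.5 to 4 marker UMIs and of 314 CPM at 12 to 40.

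Along the megakaryocyte marker level Fli1 was higher from bin to bin. Its mean over libraries was 62.6 CPM in cells without a marker UMI, then 64.0, 89.4, 149, 236 and 335 CPM, with 7374, 3247, 2024, 626, 157 and 52 cells in the 6 bins. Gata1 reached 61.1 CPM at 4 to 12 marker UMIs and stood at 58.3 and 63.9 CPM beyond. Klf1 was highest in that same middle bin, at 19.2 CPM, and was 11.2 and 2.0 CPM beyond it, the last value from 2 UMIs.

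**Figure D2:**
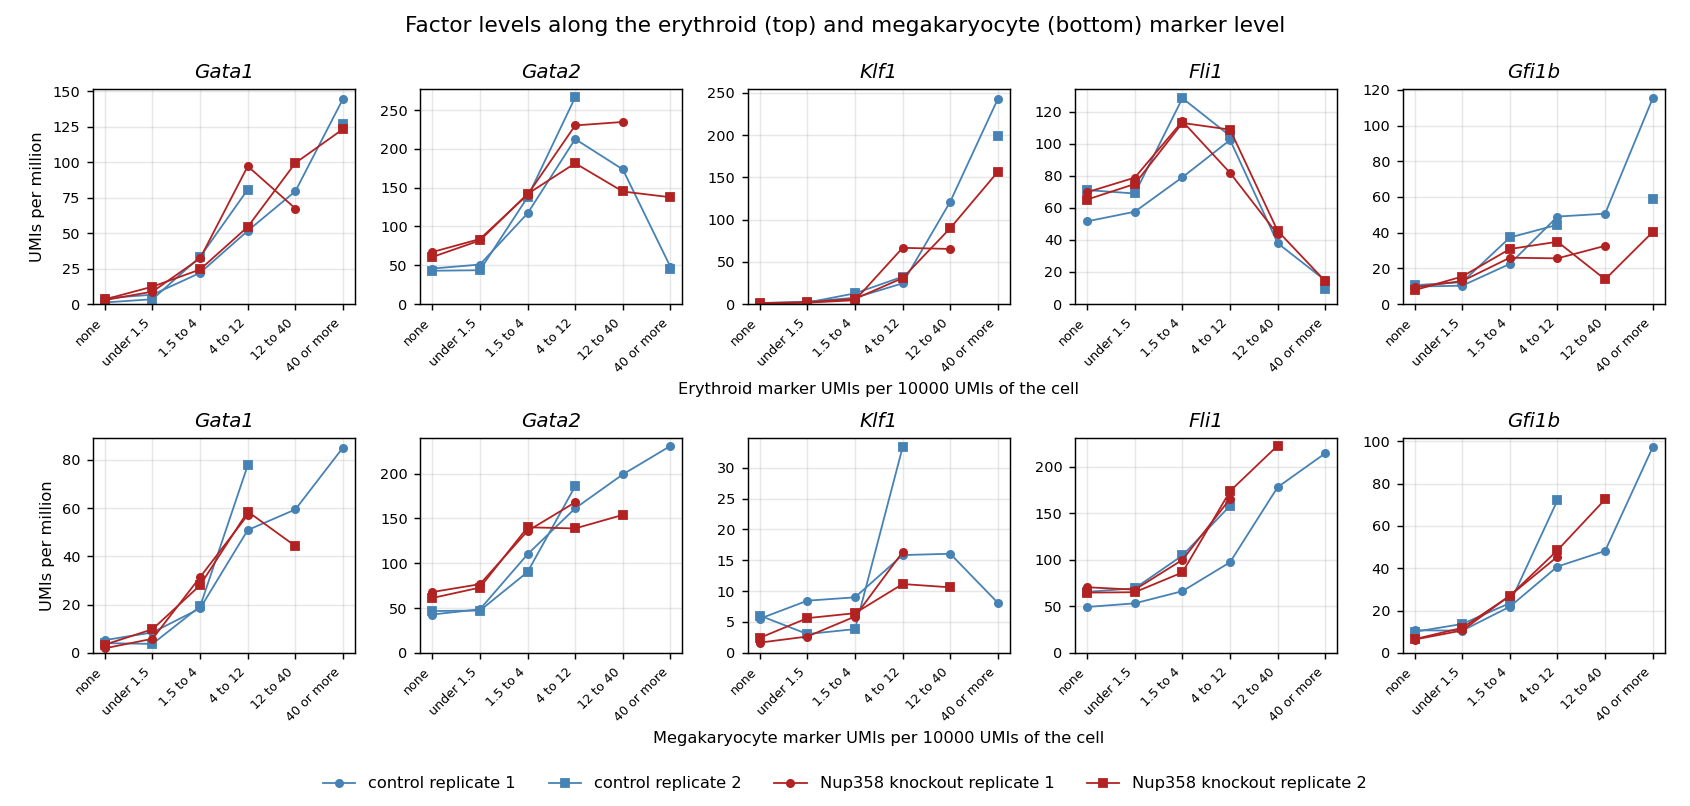
CPM of 5 factors (y axis) in 6 bins of the erythroid (top) or megakaryocyte (bottom) marker UMIs per 10000 UMIs of a cell (x axis), 1 line per library, bins of under 10 cells not drawn. Klf1 and Gata1 are highest at the upper erythroid levels in the controls, Gata2 and Fli1 are lower there, and the mean of Fli1 is highest at the upper megakaryocyte levels.

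For single cells, each cell was thinned to 2000 UMIs, since the share of cells with a UMI grows with depth. Gata1 was then seen in 31.1%, 14.8%, 27.6% and 20.0% of erythroid-like cells, a mean of 23.4% ± 7.3 (SD, n = 4 libraries). Klf1 was seen in 18.6% ± 7.3 of them, Gata2 in 28.9% ± 10.2 and Zfpm1 in 32.4% ± 9.4. In megakaryocyte-like cells Fli1 was seen in 32.1% ± 3.9, Gata1 in 11.1% ± 3.5 and Klf1 in 2.2% ± 2.0. Without thinning, 74.1% ± 10.0 of erythroid-like cells held a Gata1 UMI and 76.4% ± 20.0 a Gata2 UMI. A cell showed on average 2.1 of the 10 factors in the erythroid gate and 2.3 in the megakaryocyte gate, against 1.3 over all cells.

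Mature B cells, 88 in all with a median of 3409.5 UMIs, served as cells that should lack the GATA factors. Gata1, Klf1 and Gfi1b had UMIs in 0 of 88 of them, which allows a share of up to 3.41%, and Gata2 in 1. The thinned shares of Gata1, Gata2 and Klf1 in erythroid-like cells were above that limit. The share of Klf1 in megakaryocyte-like cells was within it, so the share alone does not tell expression from free RNA there. Without thinning, 62 of 463 megakaryocyte-like and 30 of 3196 unprimed cells held a Klf1 UMI, and the summed level was 14.6 CPM from 81 UMIs against 0.78 CPM. Of the 88 B cells, 2 and 3 came from the controls and 47 and 36 from the knockouts, so the limit says little about the controls. After thinning Fli1 was seen in 20.5% of the B cells, Lmo2 in 17.0% and Zfpm1 in 6.8%. B cells are known to express Fli1, so that this share is no measure of free RNA for it.

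Pairs of factors met in the same thinned cell more often than the product of their shares in 18 of 45 pairs in each library, counted over all 13480 cells. The strongest was Gata1 with Klf1, seen together in 34 cells where the product summed over libraries gives 2.61, a ratio of 13.02 (10.8 to 19.9 in the 4 libraries). Gata1 met Gfi1b in 30 cells against 8.64, its cofactor Zfpm1 in 112 against 38.2 and Gata2 in 92 against 37.7. Klf1 met Fli1 in 14 cells against 15.2, a ratio of 0.92 that ran from 0 to 1.61 over the libraries. The ratios over all cells hold differences between types and carry no test. Within types, the pairs above the product in each library were 2 of 45 in erythroid-like, 4 in megakaryocyte-like and 8 in unprimed cells. Pairs of other genes were not counted, so the 18 pairs have no background to be read against.

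Within erythroid-like cells the ratios lay nearer to 1, with a median of 0.97 over the 45 pairs against 1.23 in all cells. Gata1 met Klf1 in 21 cells against 16.7, a ratio of 1.25 with 1.21 to 1.69 in the 4 libraries. Gata1 met Gata2 in 13 cells against 19.2, a ratio of 0.68 with 0 to 1.52 over the libraries. Klf1 met Gfi1b in 1 cell against 7.28, which is named as the lowest ratio of the 45 pairs. In each library 6 of the 45 pairs were below the product of their shares and 2 above it. Without thinning, both GATA genes were seen in 136 of the 274 erythroid-like cells, Gata1 alone in 54 and Gata2 alone in 49. By library the share with both was 31.1%, 51.9%, 72.4% and 78.6%, and the median depth of these cells rose in the same order, from 9391.5 to 12536, 18236 and 21408 UMIs. Of the 83 basophil/mast-like cells, 45 held Gata2 alone, 31 both and 0 Gata1 alone.

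**Figure D3:**
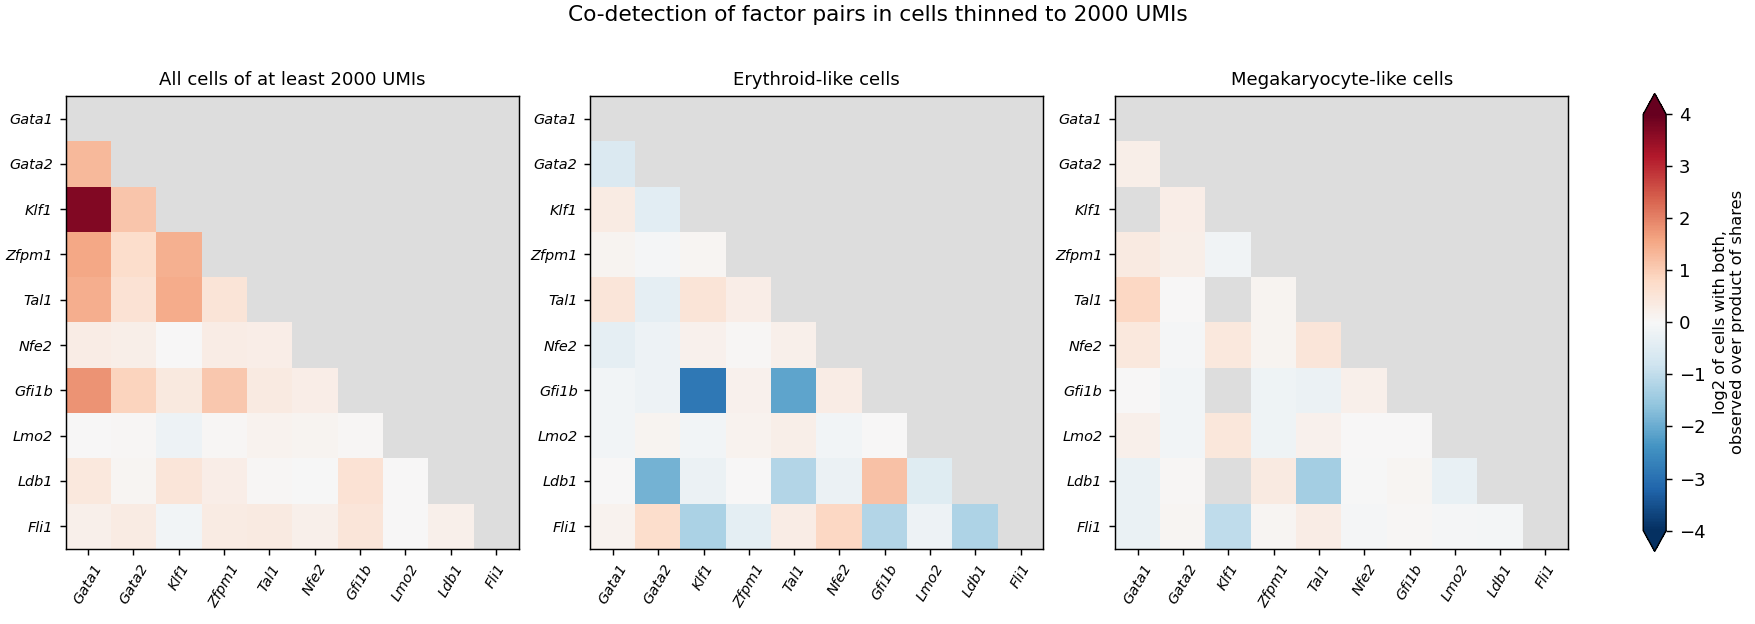
Co-detection of each pair of factors in cells thinned to 2000 UMIs, as the log2 of cells with both over the number from the product of shares (colour), in all cells (left), erythroid-like cells (middle) and megakaryocyte-like cells (right). Squares are grey where under 2 cells would be met or where 0 were. Gata1 with Klf1 is the darkest square over all cells, at a ratio of 13.02, and is pale within erythroid-like cells, at 1.25.

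Knockout and control libraries were compared in 4 sets of cells. With 2 libraries against 2, an exact permutation test of a single value cannot give a two-sided p below 0.333, and the fits across all genes were used. In all LSK cells, where fewer cells of a type and less RNA per cell cannot be told apart, 0 of 10 factors passed in edgeR, against 3.44% of genes called. At an unadjusted p under 0.05 there were 2 factors, where 21.7% of all genes were. DESeq2 called 0, with 1 at an unadjusted p under 0.05, where 12.4% of genes were. Gata2 was nearest, at 58.9 and 55.7 CPM in the controls and 85.5 and 81.3 CPM in the knockouts, which do not overlap (log2 fold change 0.50 ± 0.13, adjusted p = 0.090). It passed without control 1 (adjusted p = 0.024) and without control 2 (adjusted p = 0.034), and missed without knockout 1 or knockout 2 (adjusted p = 0.62 in both). The mix of types moved with it. Neutrophil-like cells, low in Gata2, made up 17.0% and 8.06% of the control cells and 1.33% and 0.592% of the knockout cells, and basophil/mast-like cells, its peak, 0.356% and 0.42% against 0.865% and 1.18%. The part of this mix in the Gata2 value was not tested. Within unprimed cells the Gata2 difference was 0.12 ± 0.15 and within megakaryocyte-like cells -0.24 ± 0.19. Within erythroid-like cells it was 0.63, and none of these was called. Klf1 was at 7.0 and 5.1 CPM against 3.2 and 4.8 CPM, also without overlap (-0.64 ± 0.27, adjusted p = 0.23). Zfpm1 and Tal1 did not overlap either, and the share of all genes without overlap is not given.

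Gata1 overlapped between the genotypes over all LSK cells, at 10.1 and 7.7 CPM against 10.0 and 12.2 CPM (0.27 ± 0.20, adjusted p = 0.48). Zfpm1 was at 66.6 and 47.5 CPM against 67.6 and 80.0 CPM (0.33 ± 0.19, adjusted p = 0.36), and Gfi1b at 13.8 and 14.8 CPM against 12.9 and 14.0 CPM. The other 5 factors had log2 fold changes from -0.03 to 0.22. Without control 1, Zfpm1 (0.57, adjusted p = 0.031) and Nfe2 passed beside Gata2. Without control 2, Fli1 passed beside Gata2.

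In erythroid-like cells Gfi1b was lower in both knockouts, with 133 and 23 UMIs in the controls and 22 and 38 in the knockouts, or 84.0 and 52.6 CPM against 30.6 and 22.7 CPM. The groups did not overlap, and the log2 fold change was -1.51 ± 0.31 at an adjusted p of 0.052, just outside the threshold. Klf1, at 168 and 126 against 72.2 and 90.3 CPM, did not overlap either (-0.91 ± 0.24, adjusted p = 0.15). Nor did Gata1, Gata2, Zfpm1, Tal1, Nfe2 and Ldb1, and only Lmo2 and Fli1 overlapped. The share of all genes without overlap is not given, so a lack of overlap does not set these factors apart. Gata2 stood at 99.8 and 151 CPM against 239 and 158 CPM (0.63 ± 0.30, adjusted p = 0.59) and Zfpm1 at 249 and 192 against 150.0 and 170.4 CPM (-0.53 ± 0.22, adjusted p = 0.51). Gata1 was at -0.37 ± 0.24 (adjusted p = 0.76). In all, 0 of 10 factors passed in edgeR, against 0.502% of genes called, and DESeq2 called 0. At an unadjusted p under 0.05 there were 3 in edgeR, where 8.68% of genes were, and 2 in DESeq2, where 1.89% were. Over the 9 alternatives the adjusted p of Gfi1b ran from 9.2e-06 to 0.88, at log2 fold changes from -1.67 to -1.22. It passed with all deposited barcodes (0.048), with the replicate block (0.043), with no filter on low counts (0.00091) and with 1 more marker gene in the gate (0.020). It missed in DESeq2 (0.51), without control 1 (0.085), without knockout 1 (0.16) and without knockout 2 (0.88). Without control 2, Gfi1b (-1.67), Gata2 (1.01, adjusted p = 0.0085) and Klf1 (-0.98, adjusted p = 0.0070) all passed. Gata2 came to 0.19 without control 1 (adjusted p = 0.84) and to 0.31 without knockout 1 (adjusted p = 0.999). Klf1 came to -0.76 without knockout 1 (adjusted p = 0.98) and to -1.10 without knockout 2 (adjusted p = 0.88).

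The erythroid-like cells of the 2 genotypes did not lie at the same marker level. Their median was 39.5 and 35.8 erythroid marker UMIs per 10000 in the controls and 19.7 and 27.0 in the knockouts. Cells at 40 or more made up 48.0% and 44.4% of the gate in the controls and 3.45% and 22.9% in the knockouts. In the controls Klf1 and Gata1 were highest and Gata2 was lower at the upper end of this level, and the part of the marker level in the differences between genotypes was not tested. The median depth of the gated cells differed too, at 9391.5 and 12536 UMIs in the controls and 18236 and 21408 UMIs in the knockouts. The gate asks for 3 marker genes at any depth, and the part of depth in the marker level was not tested. At 12 to 40 marker UMIs, with 66, 8, 19 and 31 cells, Klf1 read 121, 59.3, 65.2 and 89.8 CPM and Gata2 174, 213, 235 and 145 CPM, so that the genotypes overlapped for both. Gfi1b rested there on 28, 3, 15 and 10 UMIs (50.6, 35.6, 32.6 and 13.8 CPM), and the counting interval of control 2 (7.34 to 104 CPM) spans the other 3 values. At 1.5 to 4 marker UMIs, a bin that lies mostly below the gate's cut of 3.88, the genotypes overlapped for Gfi1b, at 22.5, 37.3, 26.0 and 30.8 CPM. That bin therefore says little about the gated cells. At 4 to 12 marker UMIs, above the cut, Gfi1b ran from 25.6 to 49.0 CPM over the libraries, with control 1 highest. In that bin, as at 12 to 40, both controls lay above both knockouts for Gfi1b. No test was run on the bins, and the share of all genes without overlap there is not given.

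Megakaryocyte-like cells had 0 of 10 factors past the threshold in edgeR and 0 in DESeq2, against 0.238% of genes called, and 0 at an unadjusted p under 0.05, where 9.78% of genes were. Zfpm1 came nearest (-0.39 ± 0.18, adjusted p = 0.52), and Gata1 (-0.36), Klf1 (-0.70), Gata2 (-0.24) and Gfi1b (-0.25) were not called. Both knockouts lay below both controls for Gata1, Gata2, Klf1, Zfpm1 and Tal1, and the other factors overlapped. The share of all genes without overlap is not given here either. In unprimed cells 0 of 9 factors tested passed in edgeR, against 6.09% of genes called, and DESeq2 called 0. In edgeR 1 had an unadjusted p under 0.05, where 26.3% of genes had. That 1 was Gfi1b, at 12.9 and 17.3 CPM against 10.98 and 8.7 CPM (-0.57 ± 0.24, adjusted p = 0.17), which passed without control 1 (-0.87, adjusted p = 0.0043) and came to -0.30 without control 2 (adjusted p = 0.36) and -0.41 without knockout 2 (adjusted p = 0.69). The difference of the knockout effect between erythroid-like and megakaryocyte-like cells was tested too, and 0 of 10 factors passed in edgeR, against 0.318% of genes called. At an unadjusted p under 0.05 there were 2, where 8.12% of genes were. It came to -1.44 for Gfi1b (adjusted p = 0.12) and to 0.92 for Gata2 (adjusted p = 0.11).

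**Figure D4:**
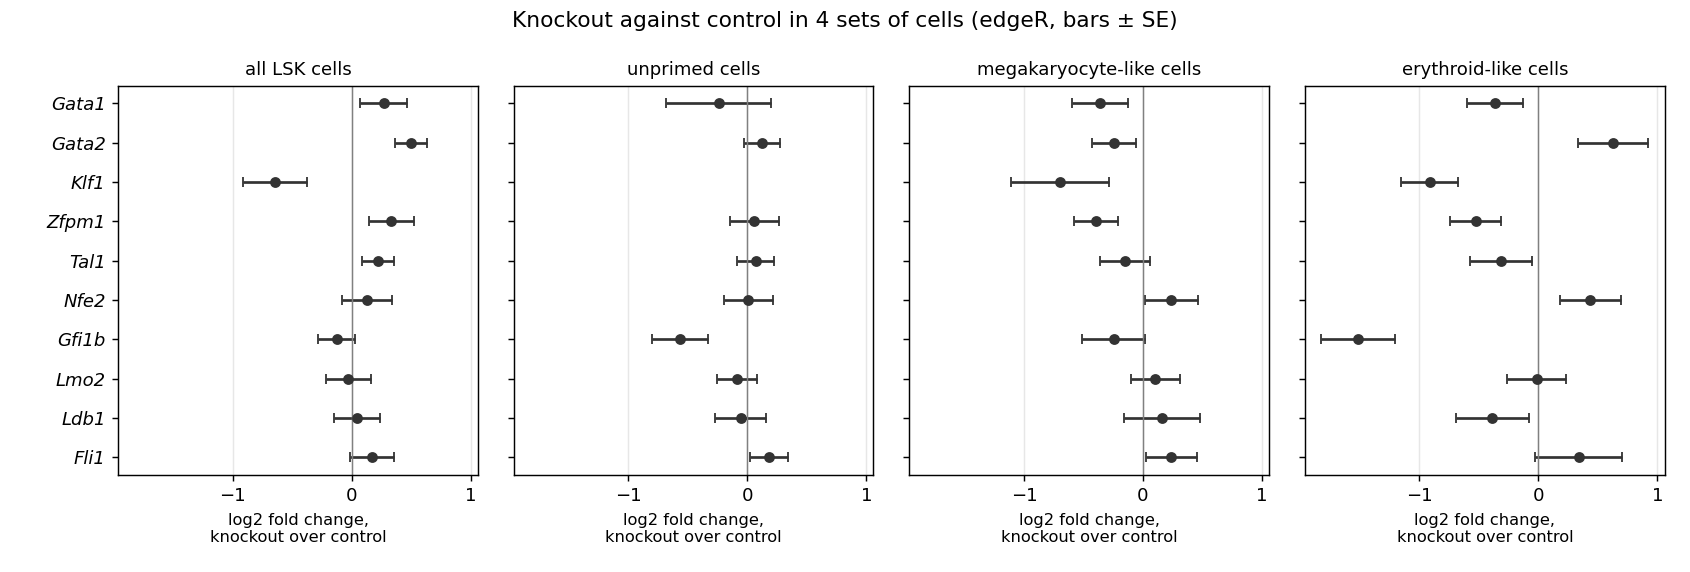
Log2 fold change of each factor, knockout over control (x axis), in all LSK, unprimed, megakaryocyte-like and erythroid-like cells. Bars are 1 SE, derived from the F statistic of the edgeR fit. Gfi1b in erythroid-like cells lies farthest from 0, at -1.51, and 0 of the values passed the adjusted threshold. Klf1 was not tested in unprimed cells.

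Known targets and partners of the factors were counted as lists. Of 28 erythroid targets, 24 could be tested in erythroid-like cells, and 9 were lower and 0 higher in the knockout, where 0.441% of genes were called lower. The median log2 fold change of the list was -1.83, against -0.01 over all genes, and 23 of 24 were below 0. Of the 24, 10 are themselves markers of the erythroid gate, whose level was lower in the knockout gate. Of the 9, 4 were globin genes of the red cell RNA that control 2 carries most of, 3 were markers of the gate (Rhd, Blvrb and Add2) and 2 were neither, namely the transferrin receptor Tfrc and the spectrin Sptb. Hbb-bs, an adult beta globin, had 1087 and 13262 UMIs in the controls and 6 and 10 in the knockouts. Blvrb, a reductase of red cells, had 944 and 669.8 CPM in the controls and 208 and 282 CPM in the knockouts. The count depended on single libraries, with 18 lower without control 1, 15 without control 2, 7 without knockout 1 and 1 without knockout 2. The lists were chosen with results of these data known, and the lower marker level of the knockout gate moves with this list.

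In all LSK cells 5 of 25 erythroid targets were lower and 0 higher (median -0.65, all genes -0.01), where 2.07% of genes were called lower. Of 11 stem and mast cell targets of GATA2, 2 were higher and 0 lower, where 1.37% of genes were called higher. They were Cpa3 (1.52, adjusted p = 0.0082), a mast cell protease, and Ms4a2 (1.46, adjusted p = 0.029), a chain of the IgE receptor, and both are markers of the basophil/mast gate. The 9 markers of that gate made up 53.8 and 39.1 CPM in the controls and 95.6 and 186 CPM in the knockouts, and the part of those cells in both values was not tested. Among 26 partners and related factors only Spi1 was lower (-0.78, adjusted p = 0.043), the ETS factor PU.1 of myeloid cells. Neutrophil markers made up 7360 and 4776 CPM in the controls and 1259 and 768 CPM in the knockouts. The part of those cells in the Spi1 value was not tested. Of 16 megakaryocyte targets, 1 was lower (Thbs1, -1.95) and 0 higher. In megakaryocyte-like cells 0 members of any of the 4 lists passed. In unprimed cells 2 of 10 erythroid targets were higher and 0 lower (median 0.28, all genes -0.01), where 6.09% of genes were called. Of 11 megakaryocyte targets there, 1 was higher and 2 lower. Of 26 partners 0 were higher and 1 lower, and 0 of 8 stem and mast cell targets were called.

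Between types, the partners had 9 higher and 4 lower of 25 in erythroid-like against unprimed cells, where 11.1% of all genes were higher and 12.4% lower. Klf3 (0.82), the repressor Bcl11a (0.70) and Myb (0.66) were higher, and Spi1 (-1.50) and Erg (-1.33) lower. Megakaryocyte-like cells had 4 of 25 called, near the 12.3% of all genes, with Runx1 higher (0.64) and Spi1, Lyl1 and Ikzf1 lower. Erythroid-like against megakaryocyte-like cells had 5 of 25 higher, where 7.42% of genes were, among them Ikzf1 (1.17), Klf3 (1.12) and Myb (0.87), and 2 lower, where 7.11% were, Runx1 (-0.94) and the ETS factor Erg (-0.90).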

How the data were processed

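Single LSK cells of 4 libraries (2 control, 2 Nup358 knockout, 3 pooled marrows each, grouped by the labelled genotype) were counted by 10x 3′ chemistry. The authors aligned reads to GRCm38 with Cell Ranger 3.1 and deposited whole-number UMI counts of 27998 genes for the barcodes called as cells, without normalization. The deposited totals were 60330267 and 25111828 UMIs in the controls and 35986936 and 54850344 in the knockouts. No filter on doublets is given in the sources used here, and no doublet caller was run.

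Barcodes with at least 200 genes, at most 10% mitochondrial UMIs and no copy with 3 times as many UMIs in another library were kept. The 10 factors and all lists were chosen with earlier results of these data known. The gate rule, the last of 2 tried (the first followed depth), and the bins of marker level were chosen after the data were seen. A list level is a cell's marker UMIs per 10000, relative to the mean of the library means. A gate needed 3 marker genes and 3 times that mean, a stem-like cell 3 markers and 2 times among unprimed cells, and the highest score decided. UMIs were summed per library and type, and CPM are such sums per 1000000 UMIs. Tests used R 4.3.3 with edgeR 4.0.16 (filter on low counts, trimmed mean of M-values, quasi-likelihood, Benjamini-Hochberg adjustment at 0.05, two-sided); DESeq2 1.42.0 was an alternative. Python 3.11.15, numpy 2.4.6, pandas 2.3.3 and scipy 1.17.1 did the rest. On simulated data for erythroid-like cells (8164 genes), 31.7% of genes changed by a log2 fold of 1 and 86.9% of those changed by 2 were found. Named genes are the 10 factors, the 3 largest and smallest changes of each list, the 5 genes most like Gata1, Gata2, Klf1 and Fli1 (mean of at least 10 CPM), and the gate markers. Tfrc, Sptb, Rhd, Blvrb and Add2 were named after their values were seen. Alternatives were all deposited barcodes, DESeq2, all genes with a count, a block on the replicate number, 1 more marker gene, gating after thinning, other thinning and each library left out. Gating after thinning was used only between types, so no comparison of genotypes was repeated with it. The block on the replicate number was used only between genotypes, and other thinning only for detection and co-detection. Sums of at least 20 cells and the repeats for the erythroid targets were added after seeing the data. Gene positions come from GENCODE on GRCm38, in which 27645 of 27998 identifiers matched, and promoters from RefSeq. The counts are 3′ tags of single libraries, and intervals cover counting error only.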

Additional observations from a re-analysis of the deposited data

Results flagged for a closer look

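For 7 pairs of factor and types, both controls moved one way between the types and both knockouts the other way. The same count over all genes is not given, so the 7 pairs are not a result about the factors. The value is the mean of the knockouts minus that of the controls, for the log2 ratio of CPM + 1 between the first and the second type. For Gata2 in erythroid-like against megakaryocyte-like cells it was 0.897, with an adjusted p of 0.11 for the test of the difference in edgeR. Nfe2 in erythroid-like against unprimed cells gave 0.52 (adjusted p = 0.26) and Tal1 in erythroid-like against megakaryocyte-like cells gave -0.107 (adjusted p = 0.94). The difference was not tested for Tal1 in basophil/mast-like against unprimed cells (0.391, where control 2 has 5 basophil/mast-like cells), nor for Gfi1b (-0.676) and Fli1 (-0.438) in lymphoid-like against unprimed cells, where control 1 has 10 lymphoid-like cells. It was also not tested for Lmo2 in neutrophil-like against unprimed cells (0.834), where the knockouts have 20 and 19 neutrophil-like cells. Some moves were very small, as for Tal1 in control 2, at 31.97 CPM in basophil/mast-like and 32.12 CPM in unprimed cells.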

How the results depend on the processing

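The number of factors called between genotypes in all LSK cells was 0 in the main test and 0 to 3 without each library in turn (3 without control 1, 2 without control 2). In erythroid-like cells it was 0, and 1 (Gfi1b) with all deposited barcodes, no filter on low counts, 1 more marker gene or the replicate number as a block (log2 fold change -1.40, adjusted p = 0.043), and 0 to 3 without each library. In unprimed cells it was 0 to 2 without each library. The labels give no source that the replicate numbers share, and the deviations of same-numbered libraries correlated at -0.058. This single value over 13779 genes cannot decide whether same-numbered libraries share a source. Stem-like against unprimed cells had 2 calls in DESeq2 and 1 without the filter. Erythroid-like against megakaryocyte-like cells had 2 to 5 without each library (2 without control 1). Lower erythroid targets in erythroid-like cells, 9 in the main test, were 20 without the filter, 16 under the replicate block and 1 to 18 without each library. Gfi1b in megakaryocyte-like cells changed sign without control 2, to 0.063, and was -0.72 without control 1. Thinned to 1000 UMIs or not thinned, Gata1 was in 10.7% or 74.1% of erythroid-like cells, Gata2 in 16.3% or 76.4% and both Gata1 and Klf1 in 1.96% or 51.2%. The ratio of Gata1 with Klf1 over all cells was 7.28 not thinned and 8.57 with all deposited barcodes. Over all genes, 474 calls in all LSK cells became 886 in DESeq2, 1933 without the filter, 1257 under the block and 372 to 2890 without each library. In erythroid-like cells 41 became 27, 204, 87 and 2 to 278, and 72 with 1 more marker gene. In megakaryocyte-like cells 21 became 173 without the filter, 71 under the block, 34 with all barcodes and 12 to 346 without each library, and in unprimed cells 709 became 1838 without the filter and 22 to 2420 without each library. The cause of these changes was not tested. With 2 libraries a genotype and 27 and 29 erythroid-like cells in a library of each, the erythroid-like test finds few changes of a log2 fold of 1.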
